A study of Mus musculus with 22 samples.

Results

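The chemokines described here are 8 genes of the CXC and CX3C families: Cxcl1, Cxcl2, Cxcl5, Cxcl9, Cxcl10, Cxcl12, Cxcl16 and Cx3cl1. They were found by symbol in the array's annotation, and where a gene had several probe sets the brightest one on average was read. All 8 were present, with 11 probe sets, among 11807 genes measured in all. The arrays hold RNA of mouse aortic endothelial cells, obtained by scraping the intima of opened aortas. Of the 22 arrays, 12 came from wild-type C57BL/6 aortas kept for 4 h in culture medium with 1% serum before scraping. These received LPS, a bacterial lipopolysaccharide, at 4 ng/mL (n = 3), oxLDL, oxidized low-density lipoprotein, at 50 µg/mL (n = 3), oxPAPC, a mixture of oxidized phospholipids, at 50 µg/mL (n = 3), or medium alone (n = 3). The other 10 arrays came from fresh aortas of 4-week-old C57BL/6 mice, 4 from ApoE -/- animals labelled hyperlipidemic before lesions and 6 from wild-type animals. All mice were on chow. The labels give no age for the mice whose aortas were incubated. The number of animals behind each array is not labelled either, so a p-value here describes spread among arrays, which may be technical.

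Chemokines are small secreted proteins that guide leukocytes through receptors on their surface. Those with the sequence ELR before the CXC motif, here Cxcl1, Cxcl2 and Cxcl5, attract neutrophils through Cxcr2, while Cxcl9 and Cxcl10 attract activated T cells and natural killer cells through Cxcr3. Cxcl12 keeps progenitor cells in place and guides vessel growth through Cxcr4, and Cxcl16 and Cx3cl1 are made as membrane proteins that hold leukocytes until proteases shed them. In endothelium, NF-kB signalling turns on the inflammatory members within hours, and interferon signalling adds to Cxcl9 and Cxcl10.

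Array quality and cell content were checked first. Arrays of a group correlated at r = 0.9771 to 0.9907 across genes. Apoe measured 3.04 to 3.23 on ApoE KO arrays and 3.78 to 4.35 on fresh wild-type arrays, all below the 40th percentile of signal, and whether its probe set lies in the deleted stretch is not known here. The endothelial label held, with Pecam1 at 11.06 to 11.70 in group means and 15 to 16 of 17 endothelial markers above the 40th percentile on every array. The smooth muscle markers Acta2 and Myh11 were bright as well, at 10.06 to 11.71 in group means, so smooth muscle RNA was part of every sample. Other cell types left signal too, with 7 to 9 of 9 fibroblast markers and 4 to 11 of 13 macrophage markers above the 40th percentile. Platelet and erythroid markers reached 3 to 4 of 6. Neutrophil markers (1 to 2 of 8 above that percentile, S100a8 on none) and T and NK cell markers (1 to 3 of 10, Cd3e on none) were mostly at background.

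The promoters of 4 members are shown, those of the chemokines with the largest called differences with LPS and oxPAPC below. RefSeq (GRCm38.p6) gave windows of 250 bases before to 50 bases after the start for 6 of the 8 genes. Each runs 5′ to 3′ along its gene, with capitals for the NF-kB consensus, searched on both strands, and for the core of the interferon-stimulated response element, which is GAAA, then 2 bases of any kind, then GAAA, also searched on both strands. The windows are chr5:90890995-90891294 on the + strand for Cxcl1, chr5:90903649-90903948 on the + strand for Cxcl2, chr5:92348840-92349139 on the − strand for Cxcl10 and chr6:117168285-117168584 on the + strand for Cxcl12.
Cxcl1: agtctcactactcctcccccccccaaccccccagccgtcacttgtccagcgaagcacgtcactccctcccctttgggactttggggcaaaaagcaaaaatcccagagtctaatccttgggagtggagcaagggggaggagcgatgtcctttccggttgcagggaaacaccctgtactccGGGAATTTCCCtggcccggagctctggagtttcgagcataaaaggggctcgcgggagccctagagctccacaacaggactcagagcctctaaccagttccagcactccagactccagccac
Cxcl2: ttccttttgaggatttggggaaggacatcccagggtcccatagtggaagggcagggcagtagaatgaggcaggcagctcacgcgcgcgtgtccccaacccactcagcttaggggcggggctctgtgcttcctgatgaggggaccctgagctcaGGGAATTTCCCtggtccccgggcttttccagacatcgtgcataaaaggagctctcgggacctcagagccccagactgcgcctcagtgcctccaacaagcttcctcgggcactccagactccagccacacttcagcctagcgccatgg
Cxcl10: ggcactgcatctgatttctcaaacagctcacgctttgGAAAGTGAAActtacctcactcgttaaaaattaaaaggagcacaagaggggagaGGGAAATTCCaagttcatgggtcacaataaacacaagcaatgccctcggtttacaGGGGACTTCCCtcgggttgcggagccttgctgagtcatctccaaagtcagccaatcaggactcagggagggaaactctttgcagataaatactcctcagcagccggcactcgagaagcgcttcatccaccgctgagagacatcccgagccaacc
Cxcl12: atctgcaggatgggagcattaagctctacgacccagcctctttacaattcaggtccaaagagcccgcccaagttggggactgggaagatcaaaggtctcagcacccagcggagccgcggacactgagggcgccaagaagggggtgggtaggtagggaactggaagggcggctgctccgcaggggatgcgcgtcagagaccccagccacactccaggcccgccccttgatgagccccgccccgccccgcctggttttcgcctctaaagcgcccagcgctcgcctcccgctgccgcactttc
Cxcl1 and Cxcl2 carry the same 11 letters, GGGAATTTCCC, which the consensus matches on both strands at overlapping positions, 71 to 61 bases before the start in Cxcl1 and 97 to 87 bases in Cxcl2. Cxcl10 carries the interferon core 213 to 204 bases before its start, 1 NF-kB match at 159 to 150 bases and an overlapping pair of matches at 104 to 94 bases. No match lies in the windows of Cxcl12, Cxcl9 and Cx3cl1. Among 32851 windows of this length, 8.46% hold the NF-kB consensus and 3.44% the interferon core. A match is a description of these letters only. On chromosome 5 of GRCm38.p6, Cxcl5, Cxcl1 and Cxcl2 belong to 1 run of chemokine genes with no other protein-coding gene between them, and Cxcl9 and Cxcl10 lie farther along with 1 gene between them.

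LPS raised 4 of the 8 chemokines above medium alone, Cxcl10 by far the most, then Cxcl2, Cxcl1 and Cxcl16. oxPAPC raised Cxcl2 and lowered Cxcl12 and Cxcl16, and oxLDL moved none past the threshold. Aortas kept in medium alone stood above fresh wild-type intima in 5 of the 8. Limma tests covered genes whose signal exceeded the array's 40th percentile on as many arrays as the smallest group of the fit holds. The incubated arrays were fitted together, so a gene could pass this filter there through a group not being compared. Calls needed an adjusted p under 0.05, and ± gives the standard error of a log2 difference. With LPS, 4 of 7 tested members were called, all higher (9.03% of 7550 genes were called, 3.35% higher). With oxLDL none of 7 was called in limma and none had an unadjusted p under 0.05 (2.81% of all genes called). With oxPAPC 1 rose and 2 fell among 7 (21.3% of all genes called, 8.36% higher and 12.9% lower). In medium against fresh wild type 5 of 6 rose (58.7% of 7513 genes called, 24.3% higher), so a call in this comparison sets a gene little apart. The arrays of the 2 groups did not overlap for 5 of the 8 genes with LPS (34.8% of all genes tested), 2 with oxLDL (28.2%), 3 with oxPAPC (40.1%) and 6 in medium against fresh wild type (52.4%). The last 6 include Cxcl5, which was not tested in limma there.

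**Figure D1:**
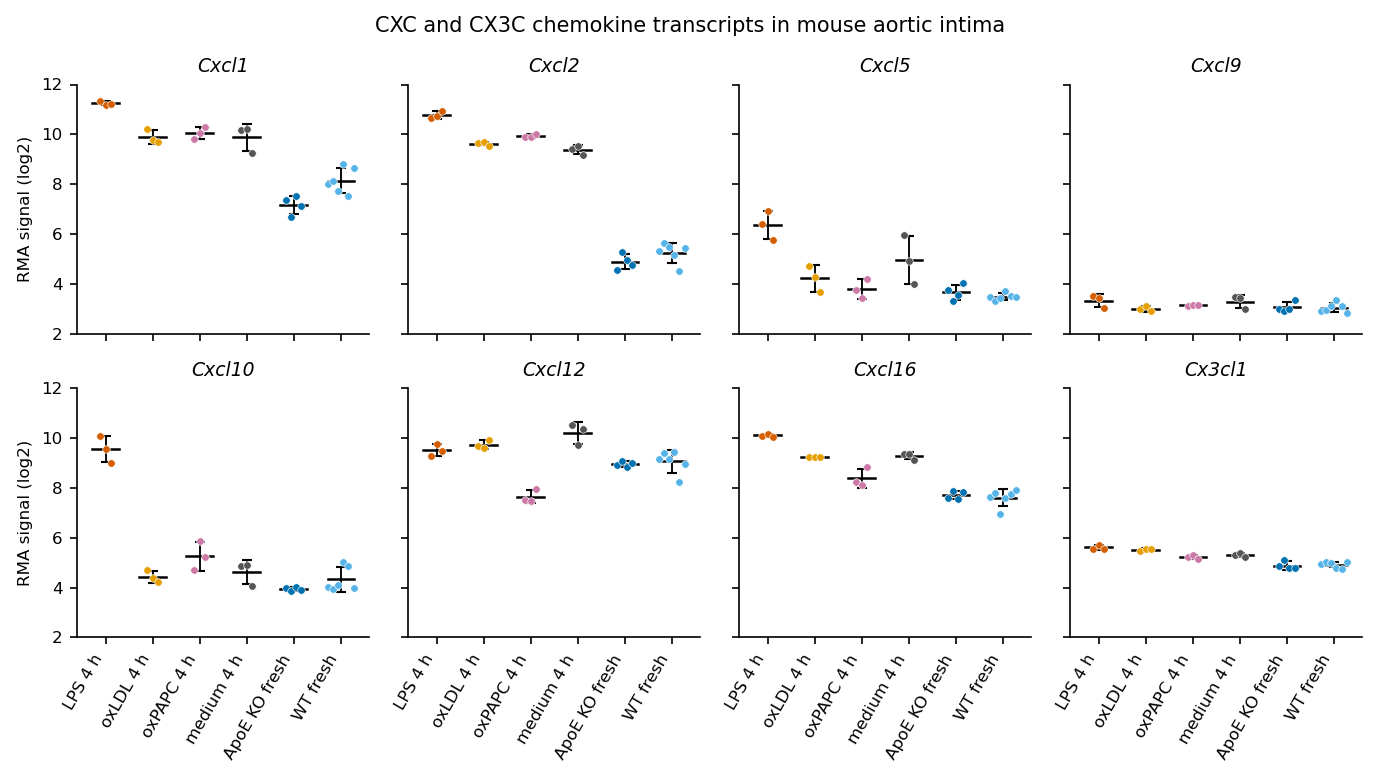
RMA signal (log2, vertical axis) of each of the 8 chemokine genes on all 22 arrays by group. Points are arrays, horizontal bars group means and error bars SD. Cxcl10 stands between 9.01 and 10.07 with LPS and at or below 5.87 on every other array, Cxcl12 is lowest with oxPAPC, and Cxcl9 stays between 2.84 and 3.52 throughout.

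Over all 8 genes the median log2 difference was 1.09 with LPS, −0.12 with oxLDL and −0.10 with oxPAPC against medium, beside −0.03, 0.01 and −0.05 over all genes tested. The 3 stimulus comparisons share the same 3 medium arrays. Cxcl9 passed the level filter in no comparison, Cxcl5 did not pass it in either comparison with fresh wild type, and Cxcl10 did not pass it among the fresh arrays. These cases were tested by exact permutation instead.

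Cxcl1, the mouse KC chemokine that recruits neutrophils, measured 11.33, 11.19 and 11.22 on the log2 scale in LPS replicates 3, 4 and 10. It measured 10.22, 9.79 and 9.68 with oxLDL, 9.83, 10.04 and 10.30 with oxPAPC, and 10.16, 10.23 and 9.26 in medium. All 3 LPS arrays lay above the other 9 incubated arrays, which overlapped between the lipids and medium, with medium replicate 11 the lowest of the 12. The gene was 2.58-fold higher with LPS than in medium (1.37 ± 0.24, adjusted p = 0.00879). With oxLDL the difference was 0.01 (95% interval −0.51 to 0.54) and with oxPAPC 0.17 (−0.36 to 0.70). Without medium replicate 11 these 2 differences were −0.29 and −0.14, with the sign turned round.

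In fresh intima Cxcl1 was already well above background, at 7.37, 6.68, 7.52 and 7.14 in ApoE KO replicates 3, 4, 5 and 6. The fresh wild-type arrays ranged over 7.53, 8.06 and 8.81 (lowest, median and highest of 6). The groups did not overlap, though the highest ApoE KO array and the lowest wild-type array nearly touched. Cxcl1 was 0.96 ± 0.26 lower in ApoE KO (unadjusted p = 0.00277, adjusted p = 0.104), and the exact permutation test of this gene alone gave p = 0.00952. It was not called, and with the smooth muscle marker mean as a covariate the difference was −0.40 (adjusted p = 0.646). Incubation in medium set it 3.35-fold above fresh wild type (1.74 ± 0.31, adjusted p = 0.000638).

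Cxcl2, known as MIP-2 and also a neutrophil attractant, showed tighter replicates. It measured 10.66, 10.72 and 10.95 with LPS, 9.64, 9.71 and 9.55 with oxLDL, 9.91, 9.89 and 10.03 with oxPAPC, and 9.41, 9.54 and 9.19 in medium. LPS lay above oxPAPC, oxPAPC above oxLDL and oxLDL above medium, with no overlap at any step. LPS gave a 2.63-fold rise over medium (1.40 ± 0.14, adjusted p = 0.000392) and oxPAPC a 1.48-fold rise (0.56 ± 0.14, adjusted p = 0.0156). The oxLDL difference of 0.25 (−0.05 to 0.55) missed the threshold (adjusted p = 0.309). Without medium replicate 11 the oxPAPC difference was 0.47 (adjusted p = 0.0559).

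Fresh arrays held Cxcl2 near the 40th percentile, at 4.57, 5.26, 4.97 and 4.76 in ApoE KO and at 4.51 to 5.65 (median 5.37) in wild type. Fresh ApoE KO and wild-type arrays overlapped. Every incubated array stood at 9.19 or above, so the lift with incubation was far larger than any stimulus added to it. Medium against fresh wild type gave 17.4-fold (4.12 ± 0.22, adjusted p = 3.45e-07), the largest incubation difference among the members. Incubated aortas may differ from fresh ones in age as well, and this cannot be told apart from the incubation.

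Cxcl5, the third neutrophil attractant measured, sat lower and varied more. It measured 6.40, 6.91 and 5.77 with LPS, 4.72, 4.28 and 3.66 with oxLDL, 3.75, 3.42 and 4.20 with oxPAPC, and 5.94, 4.94 and 3.99 in medium replicates 9, 10 and 11. The medium arrays spread widely, and 1 of them exceeded the lowest LPS array. The smooth muscle marker mean on those medium arrays was 7.20, 7.61 and 8.07, the opposite order. With only 3 arrays such an order can easily arise by chance, and a link was not tested. With LPS Cxcl5 measured 1.40 ± 0.45 above medium (adjusted p = 0.0709) and with oxPAPC 1.17 below it (adjusted p = 0.0828), neither called. It exceeded the 40th percentile on 2 of 3 medium arrays and 0 of 3 oxPAPC arrays. That oxPAPC test was run only because groups outside the comparison helped the gene pass the filter. Without medium replicate 9 the LPS difference was 1.90 (adjusted p = 0.0369), and without medium replicate 11 the oxPAPC difference was −1.65 (adjusted p = 0.0257). With the smooth muscle marker mean as a covariate the LPS difference was 2.26 (adjusted p = 0.0675) and the oxPAPC difference 0.00801 (adjusted p = 0.995). The fresh arrays held 3.30 to 4.03 in ApoE KO and 3.33 to 3.73 in wild type, all below the 40th percentile. All 3 medium arrays lay above all 6 fresh wild-type arrays (1.47, exact permutation p = 0.0119, which is the minimum over 84 splits).

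Cxcl10, the interferon-inducible attractant of Cxcr3-bearing T cells, separated LPS from everything else. It measured 10.07, 9.58 and 9.01 in LPS replicates 3, 4 and 10. The other incubated arrays held 4.70, 4.38 and 4.24 with oxLDL, 4.70, 5.87 and 5.22 with oxPAPC, and 4.89, 4.92 and 4.06 in medium. Medium overlapped both lipids, while the lowest oxPAPC array lay just above the highest oxLDL array. The lowest LPS array lay more than 3 log2 units above the highest of the others. LPS raised Cxcl10 30.5-fold over medium (4.93 ± 0.34, adjusted p = 1.93e-05). Since medium averaged only 0.06 above the 40th percentile of its arrays, that fold rests on a medium level near background. The oxPAPC arrays averaged 0.64 ± 0.34 above medium (95% interval −0.09 to 1.38, adjusted p = 0.189), and the oxLDL difference was −0.18 (−0.92 to 0.55).

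In fresh intima Cxcl10 was at 3.86 to 4.03 in ApoE KO and at 3.93 to 5.02 (median 4.08) in wild type, where replicates 13 and 14 stood apart at 5.02 and 4.88. It lay below the filter there (−0.38, exact permutation p = 0.167). Unlike Cxcl2, it was not called after incubation in medium (0.29 ± 0.29, adjusted p = 0.407). Cxcl9, which shares the Cxcr3 receptor and is induced mainly by interferon gamma, measured 2.84 to 3.52 on all 22 arrays, below the 40th percentile on every one. With LPS it differed from medium by 0.04 (exact permutation p = 0.70, where 3 against 3 arrays cannot go below 0.10). At this signal a change was not detectable.

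Cxcl12, the homeostatic chemokine of stroma and endothelium, followed an order of its own. It measured 9.29, 9.76 and 9.49 with LPS, 9.68, 9.61 and 9.92 with oxLDL, 7.50, 7.49 and 7.96 with oxPAPC, and 10.52, 9.71 and 10.38 in medium replicates 9, 10 and 11. In this brighter probe set the 3 oxPAPC arrays were the lowest of all 22, below the fresh arrays as well. Medium, oxLDL and LPS overlapped in that falling order. Against medium, oxPAPC lowered Cxcl12 5.87-fold (−2.55 ± 0.22, adjusted p = 0.000196). In bulk RNA such as this, fewer cells that make Cxcl12 and less of it in each cell cannot be told apart. The LPS difference of −0.69 ± 0.22 (adjusted p = 0.0716) was not called, but passed without medium replicate 10 (−0.94, adjusted p = 0.0268). The oxLDL difference was −0.46 (−0.95 to 0.02, adjusted p = 0.251).

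The second Cxcl12 probe set gave 5.29, 4.89 and 4.90 with oxPAPC against 6.84, 5.99 and 6.80 in medium. It also fell (−1.52 ± 0.25, adjusted p = 0.00513 over all probe sets). With LPS it differed from medium by −0.10 (−0.65 to 0.46) and with oxLDL by 0.25 (−0.30 to 0.81). Both probe sets fell with oxPAPC, while for LPS they differed in size and for oxLDL in sign. Fresh arrays held Cxcl12 at 8.90, 9.10, 8.86 and 9.01 in ApoE KO and at 8.22 to 9.45 (median 9.16) in wild type, with replicate 14 the lowest in both probe sets. In the second probe set that wild-type array measured 5.06, below oxPAPC replicate 11 at 5.29, so oxPAPC and fresh wild type overlapped there. Medium was 2.20-fold above fresh wild type (1.14 ± 0.27, adjusted p = 0.00408), which the second probe set did not pass (0.50, adjusted p = 0.319).

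**Figure D2:**
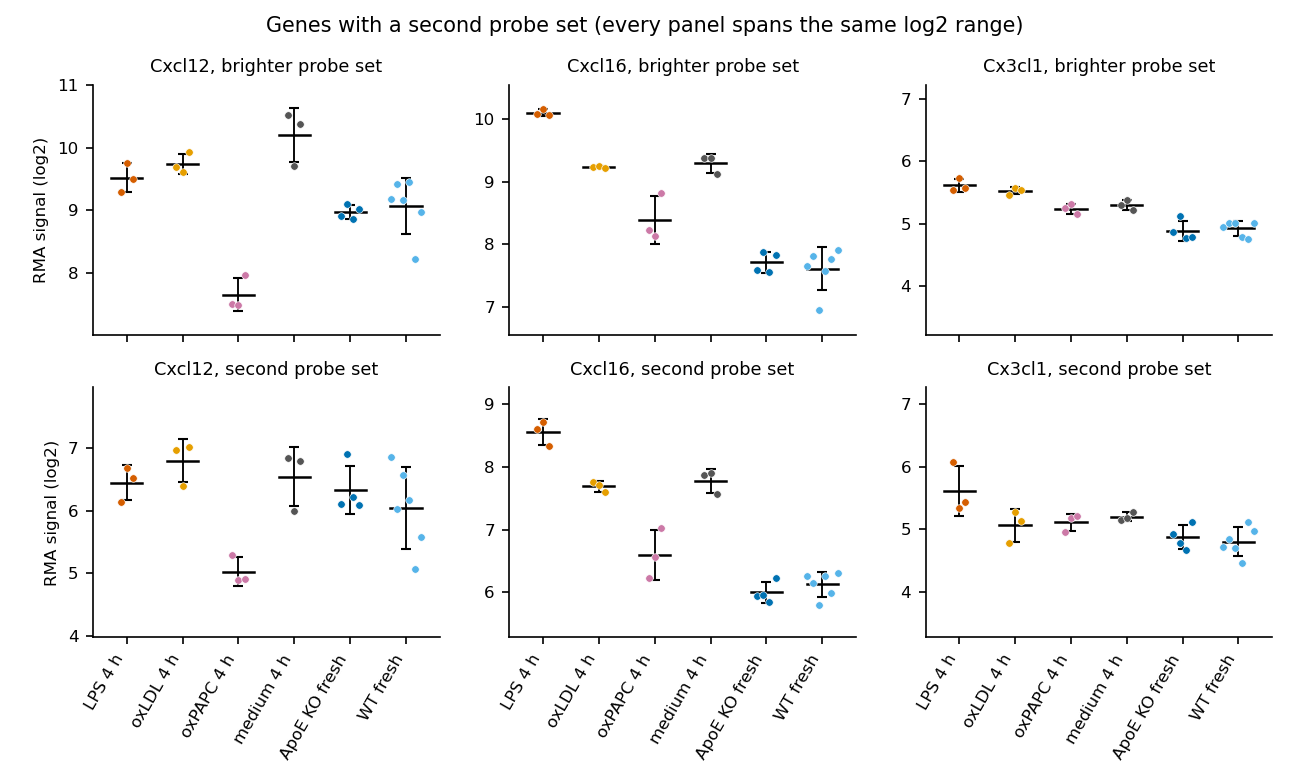
RMA signal (log2, vertical axis) on each array for the brighter probe set (top row) and the second probe set (bottom row) of Cxcl12, Cxcl16 and Cx3cl1 by group, with bars for the mean and SD. The oxPAPC arrays are lowest among the incubated groups in both probe sets of Cxcl12 and Cxcl16; the level of 1 probe set is not comparable with that of another.

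Cxcl16, a membrane chemokine that also takes up oxidized lipoprotein, was tight among the LPS and the oxLDL arrays and looser among the oxPAPC arrays. It measured 10.09, 10.16 and 10.06 with LPS, 9.23, 9.26 and 9.22 with oxLDL, 8.22, 8.12 and 8.82 with oxPAPC, and 9.38, 9.38 and 9.12 in medium. LPS lay above medium, oxPAPC below it and oxLDL within it, without overlap except between oxLDL and medium. LPS raised it 1.75-fold (0.81 ± 0.17, adjusted p = 0.0187) and oxPAPC lowered it 1.87-fold (−0.90 ± 0.17, adjusted p = 0.00577), while oxLDL differed by −0.06 (−0.44 to 0.32). The second probe set gave 0.78 (adjusted p = 0.0357) with LPS and −1.18 (adjusted p = 0.00433) with oxPAPC. The LPS call was lost without medium replicate 11 (0.73, adjusted p = 0.0594) and without LPS replicate 4 (0.78, adjusted p = 0.0591). In fresh arrays Cxcl16 stood at 7.55 to 7.87 in ApoE KO and 6.95 to 7.91 (median 7.71) in wild type. Medium set it 3.21-fold above fresh wild type (1.68 ± 0.19, adjusted p = 3.88e-05), and the second probe set gave 1.65.

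Cx3cl1, fractalkine, the membrane-bound ligand of the monocyte receptor Cx3cr1, varied over the narrowest range of the members apart from Cxcl9. It measured 5.53, 5.73 and 5.57 with LPS, 5.46, 5.56 and 5.54 with oxLDL, 5.24, 5.32 and 5.16 with oxPAPC, and 5.30, 5.38 and 5.21 in medium. LPS and oxLDL arrays lay above all medium arrays, and oxPAPC overlapped medium. No stimulus difference passed, at 0.31 ± 0.12 for LPS (adjusted p = 0.116), 0.22 for oxLDL (adjusted p = 0.302) and −0.06 for oxPAPC (adjusted p = 0.753). The second probe set gave 0.42 for LPS (adjusted p = 0.205) and, with the sign turned, −0.14 for oxLDL. Fresh arrays held 4.77 to 5.12 in ApoE KO and 4.76 to 5.01 in wild type. Medium was 1.30-fold above fresh wild type (0.38 ± 0.11, adjusted p = 0.0114), a call lost without medium replicate 10 (0.33, adjusted p = 0.0526), and the second probe set gave 0.40 (adjusted p = 0.039).

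**Figure D3:**
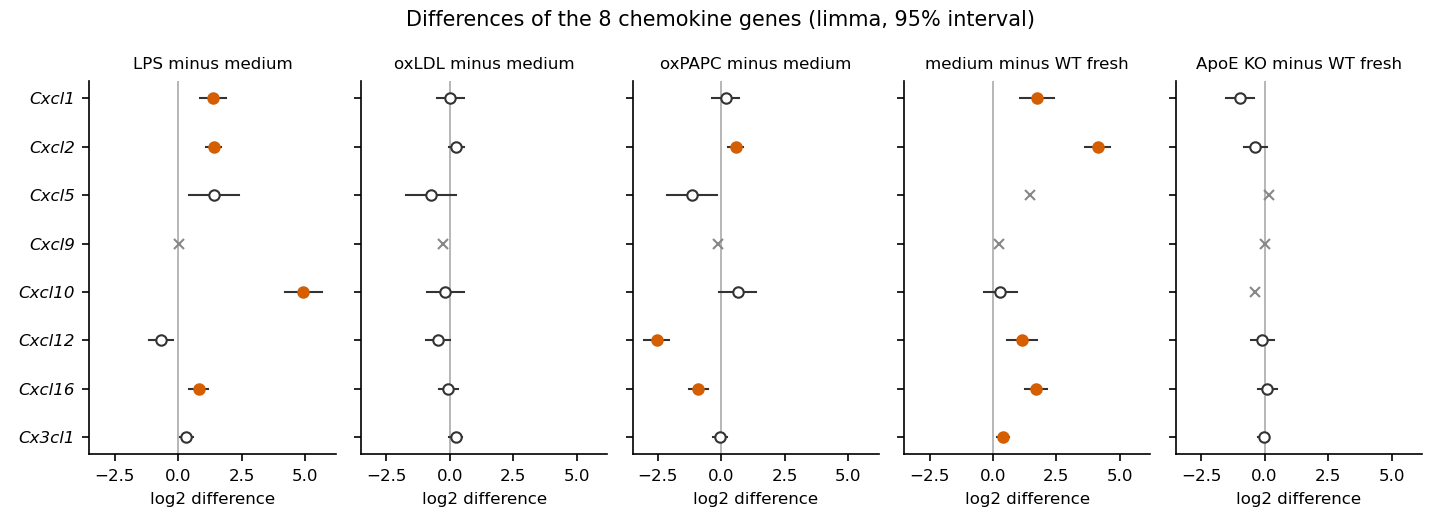
Log2 differences (horizontal axis) of the 8 genes in 5 comparisons, with 95% intervals from limma. Filled points were called at an adjusted p under 0.05, open points were not, and crosses mark genes below the level filter, shown without an interval. Cxcl10 has the largest rise with LPS (4.93), Cxcl2 with incubation (4.12), and Cxcl12 the largest fall with oxPAPC (−2.55).

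Set directly against each other, oxLDL and oxPAPC, both at 50 µg/mL, differed in 2 of 7 tested members, and both were higher with oxLDL (12.4% of all genes were called, 7.80% higher with oxLDL). Cxcl12 was 4.26-fold higher with oxLDL (2.09 ± 0.22, adjusted p = 0.000647), with 1.77 in its second probe set (adjusted p = 0.00351). Cxcl16 was 1.80-fold higher (0.85 ± 0.17, adjusted p = 0.0107), with 1.09 in its second probe set (adjusted p = 0.00831). Without oxPAPC replicate 12 the Cxcl16 difference was 0.71 (adjusted p = 0.0519). The intervals of the rest were −0.69 to 0.37 for Cxcl1, −0.61 to −0.01 for Cxcl2, −0.55 to 1.42 for Cxcl5, −1.56 to −0.09 for Cxcl10 and 0.02 to 0.54 for Cx3cl1. Cxcl2, Cxcl10 and Cx3cl1 had intervals that leave out 0 but adjusted p-values of 0.157, 0.127 and 0.140. Cxcl5 was near background in both lipid groups and passed the filter here through the other incubated arrays. The arrays did not overlap for 6 of the 8 genes, among them Cxcl9, which was below the level filter (30.0% of all genes tested).

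LPS, given at a far lower mass concentration than the lipids, stood above oxLDL in 5 of 7 tested members (5.06% of all genes were called, 2.20% higher) and above oxPAPC in 6 of 7 (8.64% of all genes were called, 4.68% higher). The arrays did not overlap for 5 of the 8 genes against oxLDL (26.4% of all genes tested) and for 7 against oxPAPC (27.8%). Cxcl5, not called against medium, was called in both, at 2.14 ± 0.45 over oxLDL (adjusted p = 0.0224) and 2.57 ± 0.45 over oxPAPC (adjusted p = 0.00566). These differences are from groups near background, since Cxcl5 exceeded the 40th percentile on 1 of 3 oxLDL arrays and 0 of 3 oxPAPC arrays. Cxcl10 was 34.6-fold above oxLDL, where 1 of 3 arrays exceeded that percentile, and 19.5-fold above oxPAPC, where 3 of 3 did. Cxcl1 was 1.35 above oxLDL and 1.19 above oxPAPC on the log2 scale. Cxcl2 was 1.14 above oxLDL and 0.83 above oxPAPC, and Cxcl16 was 0.87 above oxLDL and 1.71 above oxPAPC. Cxcl12 was 3.64-fold above oxPAPC (1.87 ± 0.22, adjusted p = 0.000686) but did not pass against oxLDL (−0.22, −0.71 to 0.26). Over oxLDL, the calls of Cxcl5 and Cxcl16 were lost without LPS replicate 3 or 4 or oxLDL replicate 15 or 16, when 3 members remained called and the differences were 1.86 to 2.17 for Cxcl5 and 0.84 to 0.88 for Cxcl16. Over oxPAPC, Cxcl1 was lost without oxPAPC replicate 11 (1.08, adjusted p = 0.0577).

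Genes of LPS reception and NF-kB signalling were read beside the chemokines. The reception genes Tlr4 (−0.34), Ly96 (−0.36), Cd14 (0.40) and Myd88 (−0.27) and the subunit Rela (−0.25) were not called with LPS. Of 14 tested genes of the LPS receptor and NF-kB signalling list, 5 rose with LPS and none fell (3.35% of all genes rose). Among them the inhibitor Nfkbia was above the 40th percentile on every array (1.04 ± 0.19, adjusted p = 0.00878). Tnfaip3, which ends NF-kB signalling (1.37 ± 0.22, adjusted p = 0.0056), and the inhibitor Nfkbie (1.25 ± 0.27, adjusted p = 0.0182) passed the filter through the LPS arrays, with 0 and 1 of 3 medium arrays above that percentile, so their differences are from background. With oxPAPC 3 of these 14 fell and none rose (12.9% of all genes fell). They were Bcl3, a nuclear cofactor of NF-kB (−1.84 ± 0.28), the receptor adaptor Myd88 (−1.10) and the subunit Rela (−0.57, adjusted p = 0.0395). With oxLDL none of 14 was called, and Rel had the smallest p (−0.46, adjusted p = 0.12). Medium against fresh wild type raised 8 of 10 tested (24.3% of all genes rose). The largest rises were Bcl3 (2.97 ± 0.10, from a level below the 40th percentile on all 6 fresh wild-type arrays), the subunit Rel (2.68, from a fresh wild-type mean also below that percentile) and Nfkbiz (1.78). The list's median difference was 0.37 with LPS and 1.22 with incubation, beside −0.03 and −0.13 over all genes.

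Cxcl10 responds to interferon as well, so its signalling genes were read beside it. None of 9 tested interferon signalling genes was called with LPS in limma, and Irf1, a transcription factor with sites in chemokine promoters, measured 0.73 ± 0.23 (adjusted p = 0.0679). With oxPAPC 3 of 9 fell (12.9% of all genes fell). These were Stat2 (−1.69 ± 0.26), the receptor chain Ifngr1 (−0.84) and Irf8 (−0.65, to a level below the 40th percentile on all 3 oxPAPC arrays). With oxLDL none was called (Stat2 −0.95, adjusted p = 0.0694). After incubation Ifngr1 fell by 1.36 and Irf8 rose by 0.65, with Irf8 below the 40th percentile on all 6 fresh wild-type arrays.

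Chemokine receptors (not all of them receptors of the members), proteases and binding partners were read next. As shares of all genes tested, 3.35% rose with LPS, while 8.36% rose and 12.9% fell with oxPAPC. With LPS 429 of 7550 genes fell, and in medium against fresh wild type 24.3% rose. Of 4 tested receptors 1 rose with LPS, Ccrl2, which presents chemerin and is related to chemokine receptors (1.41 ± 0.35, adjusted p = 0.0302). With oxPAPC 1 fell, Ackr3, the scavenging receptor of Cxcl12 (−0.89 ± 0.20, adjusted p = 0.0121), and against fresh wild type the scavenging receptor Ackr4 was 1.62 lower in medium. Cx3cr1, the receptor of Cx3cl1, was called with no stimulus, and Cxcr2, Cxcr3, Cxcr5 and Cxcr6 lay below the filter. Among 4 tested proteases, Mmp2, which cleaves Cxcl12, fell with LPS (−0.88 ± 0.20, adjusted p = 0.0217) and with oxPAPC (−0.87), and Adam17, a sheddase of Cx3cl1, fell with oxPAPC (−0.77 ± 0.21, adjusted p = 0.0229). Incubation lowered 3 of 4, Mmp2 (−1.95), Adam17 (−0.47) and Adam10, the sheddase of Cxcl16 (−0.40). Over all genes, 2584 of 7513 were lower in that comparison. Of 7 heparan sulphate genes, whose sugars hold chemokines at the cell surface, Ndst2 fell with LPS (−0.85) and with oxPAPC (−1.11), where Hs2st1 fell too (−0.67), while incubation raised Sdc4 (1.66) and Ndst2 (0.92) and lowered Sdc2 (−1.21) and 1 more. With oxLDL none of these 3 lists held a call, the smallest p belonging to Ndst2 (−0.64, adjusted p = 0.14), Adam17 (−0.39, adjusted p = 0.302) and Ccrl2 (−0.40, adjusted p = 0.532).

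Message stability and hypoxia were read as inputs of the inflammatory chemokines and of Cxcl12. Beside these lists, 8.36% of all genes rose and 12.9% fell with oxPAPC, and 429 of 7550 fell with LPS. In medium against fresh wild type 24.3% rose and 2584 of 7513 fell. Of 5 genes that control chemokine mRNA decay, Zfp36l2, which promotes decay of AU-rich messages, rose with oxPAPC (1.08 ± 0.21, adjusted p = 0.00569), and Il17ra (2.63) and Elavl1 (0.51) rose with incubation, while with LPS none was called (Elavl1 0.44, adjusted p = 0.101). Of 6 hypoxia genes, whose factor Hif1a is a known inducer of Cxcl12, Hif1a fell with oxPAPC (−0.73 ± 0.17, adjusted p = 0.0129) and Vegfa fell with LPS (−0.61). Incubation raised Egln3 (4.14, from a fresh wild-type mean below the 40th percentile), Vegfa (2.40) and Hif1a (2.13) and lowered 1 gene. None of either list was called with oxLDL (Elavl1 0.37, adjusted p = 0.213; Hif1a −0.27, adjusted p = 0.372). Other CXC ligands gave 1 call, the platelet chemokine Ppbp in ApoE KO intima (3.55 in ApoE KO against 6.48 in wild type; −2.93 ± 0.53, adjusted p = 0.0426). Ppbp was below the 40th percentile on all 4 ApoE KO arrays and passed the filter through the wild-type arrays, so the difference is from background. It and Pf4 were the 2 of 7 that could be tested. Cxcl3, Cxcr1, Cxcr4, Ackr1, Nfkb1 and Zfp36 were among the listed genes not analysed here.

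Cell type markers moved with the stimuli as well. With oxPAPC 8 of 13 smooth muscle markers rose (median 1.00), 8 of 16 endothelial markers fell (median −0.73) and 9 of 11 macrophage markers fell (median −0.82). Over all genes 8.36% rose and 12.9% fell. The mean log2 signal of the smooth muscle markers ranged over 8.30 to 8.69 with oxPAPC, 7.91 to 8.39 with oxLDL, 8.19 to 8.43 with LPS and 7.20 to 8.07 in medium. Endothelial markers averaged 7.57 to 7.98 with oxPAPC and 8.33 to 8.45 in medium, and macrophage markers averaged 5.17 to 5.34 with oxPAPC and 5.87 to 5.97 in medium. With the mean of the smooth muscle markers as a covariate, the oxPAPC differences were −2.23 ± 0.37 for Cxcl12 (adjusted p = 0.0865), −0.55 for Cxcl16 (adjusted p = 0.389) and 0.64 for Cxcl2 (adjusted p = 0.264). No member and none of 7550 genes was then called in limma, although 3 members and 1090 genes had an unadjusted p under 0.05 and standard errors were 1.72 times as large. Cxcl12 and Cxcl16 stayed called between oxLDL and oxPAPC with that covariate.

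**Figure D4:**
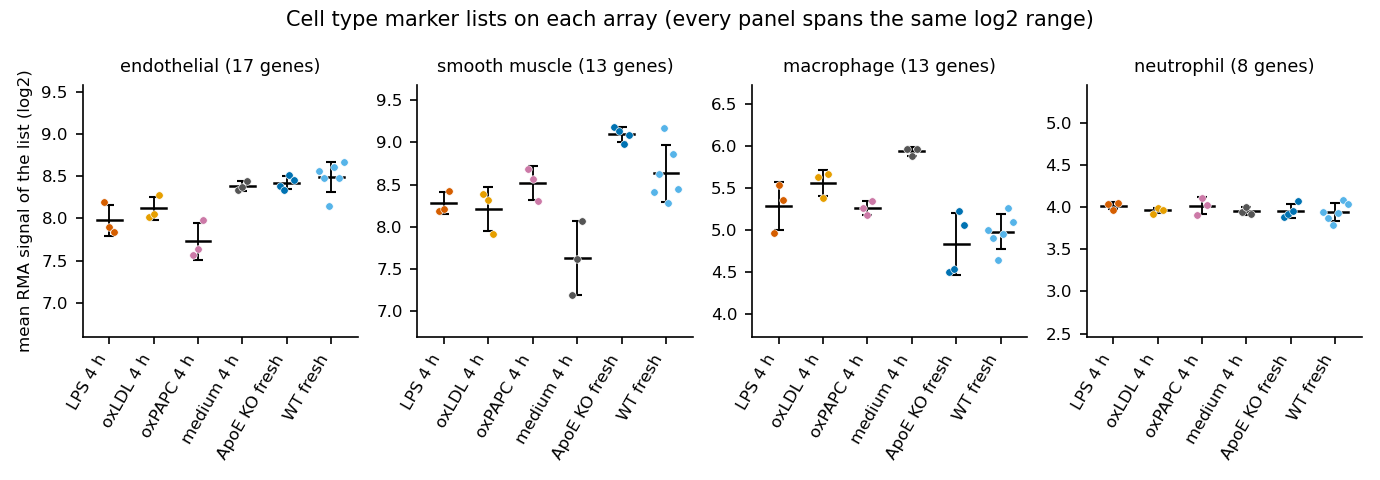
Mean RMA signal (log2, vertical axis) of 4 cell type marker lists on each array by group, with bars for the mean and SD; every panel spans the same log2 range. Smooth muscle markers are lowest in medium (7.20 to 8.07), endothelial markers lowest with oxPAPC (7.57 to 7.98) and macrophage markers highest in medium (5.87 to 5.97).

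With LPS, 3 of 13 smooth muscle markers rose, and 4 of 16 endothelial and 4 of 11 macrophage markers fell (253 of 7550 genes rose and 429 fell). All 4 LPS calls among the members held with the covariate, Cxcl16 at the threshold (1.07, adjusted p = 0.0498). Over all genes, calls with LPS numbered 103 with the covariate and 682 without it. In medium against fresh wild type, 11 of 13 smooth muscle markers fell, and 10 of 11 macrophage markers rose and 1 fell. Over all genes 24.3% rose and 2584 of 7513 fell. The covariate kept Cxcl2 and Cxcl16 there and lost Cxcl1 (0.61, adjusted p = 0.234), Cxcl12 (0.77, adjusted p = 0.255) and Cx3cl1 (0.36, adjusted p = 0.203). Standard errors were 1.82 times as large with it, and Cx3cl1 measured 0.38 without it. The smooth muscle marker mean did not overlap between these groups (7.20 to 8.07 in medium, 8.28 to 9.17 in fresh wild type). This covariate and incubation can therefore hardly be told apart. The part of macrophage RNA in the rise of Cxcl2, Cxcl1 and Cxcl16 with incubation was not tested. Adgre1, a defining macrophage marker, averaged 4.67 in medium and 3.44 in fresh wild type, and was above the 40th percentile on 2 of 3 medium arrays and on none of 6 fresh wild-type arrays.

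Between fresh ApoE KO and wild-type intima no chemokine of the 8 was called (0.428% of 7247 genes were called), and 1 of 5 tested, Cxcl1, had an unadjusted p under 0.05. Its groups did not overlap, as for 5.17% of all genes. Cxcl2 measured −0.36 ± 0.21 (−0.82 to 0.09), Cxcl12 −0.10 (−0.55 to 0.36), Cxcl16 0.10 (−0.28 to 0.48) and Cx3cl1 −0.04 (−0.27 to 0.19). None of the NF-kB, interferon, receptor, protease, heparan sulphate, stability or hypoxia genes was called either. The smallest p in these lists belonged to Ackr3 (−0.32, adjusted p = 0.139), Arnt (0.29, adjusted p = 0.195), Sdc4 (0.44, adjusted p = 0.21), Rel (−0.54, adjusted p = 0.304) and Irf1 (−0.38, adjusted p = 0.344) within their own lists. Smooth muscle markers had a median difference of 0.48 with none of 13 called.

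The genes whose levels ran most like each member over the 22 arrays were chosen by Pearson r outside the members. As a description across arrays that share the split between fresh and incubated aortas, Cxcl10 ran with Il12b (r = 0.959, 0.957 within the 12 incubated arrays) and the collagenase Mmp13 (0.948 and 0.950). Cxcl16 ran with Tifa, an NF-kB adaptor (0.970 and 0.961), and with the cytokine Il1b (0.968 and 0.933). Cxcl5 ran with the antagonist Il1rn (0.929 and 0.910) and the chemokine Ccl3 (0.924 and 0.925). Cxcl12 ran with the endothelial receptor Eng (0.873 and 0.940) and with Yeats4 (0.870 and 0.933). For Cxcl2 the nearest were Psat1 and Brix1 (both 0.986), with 0.689 and 0.715 within the incubated arrays, and for Cxcl1 Rps6ka3 (0.948 and 0.884) and Rab8b (0.944 and 0.715). Cx3cl1 ran with Erc1 (0.940 and 0.847) and Il1b (0.922 and 0.795), and for Cxcl9, at background, the values were 0.753 for B3galt6 and 0.702 for Lmnb2. The values within incubated arrays include differences between the stimuli, since group means were not removed for these pairs. Within the 10 fresh arrays r ranged from 0.103 (Cxcl5 with Ccl3) to 0.722 (Cxcl9 with B3galt6). Among the members, Cxcl1 ran with Cxcl2 at r = 0.905 and with Cxcl10 at 0.940 over the 12 incubated arrays, but at 0.217 and 0.356 over the 22 arrays once group means were removed.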

How the data were processed

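RNA of intima scrapings was measured on 22 Affymetrix arrays. The deposited log2 values came from RMA in affy, per the submitters' processing notes (versions are not given in the sources used here), and were used as they are. RMA shares 1 distribution among arrays, so changes are relative to each array. Of 22626 probe sets, 18003 had 1 gene symbol, 287 several and 4336 none, which left 11807 genes, each read from its brightest probe set. Probe sets of a gene were compared for the 3 members that have 2. The labels state an RNA integrity number of 7.0 or more and amplified RNA; array number limits the precision, and quartiles were near equal (medians 5.227 to 5.392).

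Groups followed the labels. limma 3.58.1 in R 4.3.3 (lmFit, eBayes) was fitted on all genes above the level filter, with the 12 incubated arrays together and each fresh comparison on its own arrays, and p-values were adjusted by Benjamini-Hochberg over all genes tested. Second probe sets were fitted among all probe sets without the filter. Members below the filter had a two-sided exact permutation test. The fit was tested on simulated data. Alternatives were median centring, cyclic loess, no filter or one at the 20th percentile, an intensity trend or a fit of the compared groups alone, a smooth muscle marker covariate, the mean over probe sets and each array left out. Named list genes were the up to 3 called with the largest change in a comparison, or the one with the smallest p where none was called, and the 2 genes nearest each member by Pearson r among 7927. The members and lists were chosen with earlier results of these data known.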

Additional observations from a re-analysis of the deposited data

Results flagged for a closer look

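Cxcl16 stood out on 1 fresh wild-type array. Replicate 12 measured 6.95, below the next lowest array at 7.58, while the highest of the 6 reached 7.91. The gap was large for a group of this size. The same array had the lowest endothelial marker mean of its group (8.15) and the highest smooth muscle marker mean (9.17); their part in the Cxcl16 value was not tested. Of 16 combinations of gene and fresh group examined, 1 stood apart in this way, and chance alone marks about 1 in 20.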

How the results depend on the processing

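Over the 53 member values, alternatives left direction and side of the threshold as they were in 686 cases, took a call away in 20, added one in 5 and turned the sign in 14, none of these called. The cause was not tested. With the smooth muscle covariate, members called numbered 0 for oxPAPC and 2 for medium against fresh wild type. With 1 array left out they numbered 3 to 5 for LPS against oxLDL and 1 to 2 for oxLDL against oxPAPC. Sign changes in ApoE KO against wild type gave 0.13 (covariate) and 0.094 (mean of probe sets) for Cxcl12. Cxcl16 gave −0.015 (mean of probe sets) and −0.034 to 0.16 with an array left out. Cx3cl1 gave 0.018 (mean of probe sets) and −0.12 to 0.000347 with an array left out. The covariate gave 0.031 for Cxcl5, 0.23 for Cxcl10 and 0.17 for Cxcl16 in oxLDL against medium, 0.00801 for Cxcl5 in oxPAPC against medium and −0.21 for Cxcl10 in medium against fresh wild type. Leaving out an array gave Cxcl1 −0.29 to 0.19 for oxLDL and −0.14 to 0.35 for oxPAPC. Cx3cl1 was called between LPS and oxPAPC without the filter (0.37, adjusted p = 0.0491) and as a mean of probe sets (0.44, adjusted p = 0.0494).

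All genes called numbered 31 in ApoE KO against wild type (1 to 68 with an array left out, and 1 to 42 under the other alternatives), 682 with LPS (233 to 388, and 103 to 817), 212 with oxLDL (23 to 271, and 16 to 287), 1607 with oxPAPC (738 to 2008, and 0 to 1777) and 4411 for incubation (3757 to 4370, and 2179 to 4813). They numbered 382 for LPS against oxLDL (129 to 266, and 223 to 396), 652 for LPS against oxPAPC (247 to 1209, and 345 to 750) and 934 for oxLDL against oxPAPC (347 to 1371, and 433 to 918). Median centring changed the oxLDL split to 92 higher and 135 lower, from 56 and 156. No paired analysis was possible because compared groups share at most 1 replicate number. Signals under the 40th percentile limit Cxcl9 in every group, Cxcl5 outside the LPS arrays and Cxcl10 outside the LPS and oxPAPC arrays.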

Other observations

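Markers of cells outside the endothelium and media moved too. Of 9 fibroblast markers, 6 fell and 2 rose in medium against fresh wild type (median −1.39), 2 fell with LPS, 2 fell with oxLDL, and 2 fell and 1 rose with oxPAPC. In medium against fresh wild type, 2584 of all 7513 genes tested fell and 24.3% rose. Of 4 tested platelet and erythroid markers, 3 fell in medium against fresh wild type (median −1.02), 2 fell with oxPAPC, 1 fell with oxLDL and none was called with LPS in limma. In ApoE KO against wild type none of these 4 was called (median −0.26), beside the lower platelet chemokine Ppbp, and the part of blood cell content in that value was not tested.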
